A study of Mus musculus with 12 samples.

Results

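Ribosome biogenesis genes form a large class of textbook targets of the transcription factor Myc, and 44 such genes were followed here through a co-culture of Bmpr1a-/- and wild-type mouse embryonic stem cells (ESC). They were chosen by name: subunits and factors of RNA polymerase I, nucleolar regulators, rRNA modification and processing factors, assembly factors of both ribosomal subunits, and 3 enzymes of polyamine and pyrimidine synthesis. The deposited annotation gave 37 of the 44 a probe set under exactly that symbol, of 17621 genes tested, and all 37 lay above the filter on dim probe sets. For a gene with several probe sets, the probe set of highest mean signal was used. Another 5 were found under older symbols (Nop58, Polr1a, Polr1b, Nop2 and Nop14) and are given apart from the 37. Fbl had only a probe set shared with another locus, and Noc2l was not analysed here.

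RNA was measured on 12 Affymetrix mouse gene arrays, 3 in each of 4 groups. Mixed Bmpr1a-/- cells, which lack a receptor of bone morphogenetic proteins (BMP) and carry green fluorescent protein (GFP), had shared a dish with wild-type cells for 3 days in N2B27, a serum-free medium, and were then sorted on GFP. Separate Bmpr1a-/- cells had spent the same time in that medium without the other line. Mixed wild-type and separate wild-type cells carried no GFP and were handled in the same 2 ways. Every Bmpr1a-/- array comes from GFP-marked cells, so genotype, cell line and GFP cannot be told apart. The labels used here do not say whether cells grown separately were sorted too. The file headers number the replicates of each group as experiments, but no label says what was repeated in each of them (culture, sort or extraction). The p-values therefore measure the spread between these samples, part of which may be technical, and 3 arrays per group limit the precision.

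Making a ribosome starts in the nucleolus, where RNA polymerase I copies the ribosomal RNA (rRNA) genes and many helper proteins modify, cut and fold the transcript while ribosomal proteins join it. Myc binds E-box sequences in many promoters of this machinery and raises rRNA synthesis, so the helpers' mRNA levels tend to move with Myc and with growth rate. In the early mouse embryo and in ESC, cells with less Myc than their neighbours are known to be lost from mixed populations.

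The labels were checked against Bmpr1a and cell type markers. Bmpr1a gave 381, 362.5 and 365 in mixed Bmpr1a-/- cells and 415, 462 and 424.5 in separate Bmpr1a-/- cells, against 505, 555.1 and 512 in mixed wild-type cells and 525, 588 and 534.5 in separate wild-type cells. All 6 Bmpr1a-/- arrays were below all 6 wild-type arrays, although the labels used here do not say whether the probes lie in the deleted part. The summed signal of 8 pluripotency markers ran between 7298 and 8451 in mixed and between 7964 and 8377 in separate Bmpr1a-/- cells, against 3376 to 3930 in mixed wild-type cells and 3268 to 3879 in the separate ones. Of these 8 markers, 7 were higher in Bmpr1a-/- cells in each kind of culture (limma, adjusted p under 0.05), with Sox2 the exception in separate and Pou5f1 in mixed culture. Of 8 fibroblast markers, 5 lay above the filter, and Postn, Lum and Fap lay below it. Their 5-gene sum was 403 to 423 in mixed and 335 to 429 in separate Bmpr1a-/- cells, against 455 to 495 in mixed wild-type cells and 542 to 559 in the separate ones.

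Promoters are printed for 5 of the genes on which the results turn, because Myc binds the E-box CACGTG and, less tightly, the variant CACGCG. The windows run from 250 bases before to 50 bases after the annotated start (RefSeq, assembly GRCm38.p6), 5′ to 3′ on the gene's own strand. Capitals mark CACGTG and CACGCG, searched on both strands, so that the variant also appears as CGCGTG. The 2 forms of the variant can overlap, as they do in Mybbp1a. The windows are Polr1e at chr4:45018359-45018658 (plus strand), Ddx21 at chr10:62602249-62602548 (minus strand), Rrn3 at chr16:13780449-13780748 (plus strand), Mybbp1a at chr11:72441077-72441376 (plus strand) and Utp20 at chr10:88826765-88827064 (minus strand).
Polr1e: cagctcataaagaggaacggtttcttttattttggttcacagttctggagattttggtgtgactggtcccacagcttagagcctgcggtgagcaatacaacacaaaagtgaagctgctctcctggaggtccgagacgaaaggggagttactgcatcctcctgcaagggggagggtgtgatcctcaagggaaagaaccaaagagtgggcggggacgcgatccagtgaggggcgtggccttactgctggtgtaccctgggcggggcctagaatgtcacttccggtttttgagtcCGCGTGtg
Ddx21: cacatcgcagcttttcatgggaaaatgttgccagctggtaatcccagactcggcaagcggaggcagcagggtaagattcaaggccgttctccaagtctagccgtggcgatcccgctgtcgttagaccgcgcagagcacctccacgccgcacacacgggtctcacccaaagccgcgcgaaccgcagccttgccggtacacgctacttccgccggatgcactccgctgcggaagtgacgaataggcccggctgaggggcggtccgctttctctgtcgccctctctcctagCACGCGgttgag
Rrn3: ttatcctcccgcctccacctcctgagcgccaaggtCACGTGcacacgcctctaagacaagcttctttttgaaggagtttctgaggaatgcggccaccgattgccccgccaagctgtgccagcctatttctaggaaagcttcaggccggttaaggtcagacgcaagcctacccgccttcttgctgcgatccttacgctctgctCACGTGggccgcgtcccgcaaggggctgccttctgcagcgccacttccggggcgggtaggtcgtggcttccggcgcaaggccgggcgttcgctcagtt
Mybbp1a: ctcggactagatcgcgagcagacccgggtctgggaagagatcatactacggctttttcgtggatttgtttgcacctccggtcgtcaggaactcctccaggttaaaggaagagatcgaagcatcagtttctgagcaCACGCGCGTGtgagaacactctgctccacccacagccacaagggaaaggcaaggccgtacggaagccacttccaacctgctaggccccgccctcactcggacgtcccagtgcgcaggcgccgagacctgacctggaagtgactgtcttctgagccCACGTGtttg
Utp20: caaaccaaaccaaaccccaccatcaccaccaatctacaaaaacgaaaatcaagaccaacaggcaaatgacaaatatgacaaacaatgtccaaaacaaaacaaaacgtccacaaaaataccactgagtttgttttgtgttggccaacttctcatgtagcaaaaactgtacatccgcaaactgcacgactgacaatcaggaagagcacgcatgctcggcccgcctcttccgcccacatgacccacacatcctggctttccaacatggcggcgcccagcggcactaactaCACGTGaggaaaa

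Polr1e and Ddx21 held only the variant, 42 and 38 bases past the start. In Mybbp1a CACGTG began 40 bases and in Utp20 37 bases past the start, and Rrn3 held it at positions -215 and -48 relative to the start. Of the 37 genes, 33 had an entry in the promoter table, and Bop1 was not among them. The promoters printed above all hold a match. Dkc1, Surf6 and Cad, which also passed in a comparison, held neither CACGTG nor the variant. CACGTG was present in 10 of these 33 (30.3%) and in 1365 of the 12745 tested genes with an entry (10.7%). The variant was present in 10 of the 33 (30.3%) and in 17.4% of the tested genes, and either letter string in 18 of 33 (54.5%) against 25.8%. A match is a description of the letters, and binding of Myc was not measured. The genes were listed as Myc targets, so a high share of E-boxes is no independent observation.

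The level of each gene was compared across the 12 arrays as its log2 signal minus its own mean over all arrays, so that no gene's level is set against another's. Averaged over the 37 genes, this value was -0.03, -0.12 and -0.15 in the mixed Bmpr1a-/- arrays and 0.18, 0.15 and 0.03 in the separate Bmpr1a-/- arrays. It was 0.10, -0.04 and -0.02 in the mixed wild-type arrays and -0.01, 0.03 and -0.11 in the separate wild-type arrays. All 3 mixed Bmpr1a-/- arrays thus lay below all 3 separate Bmpr1a-/- arrays, whereas the 2 wild-type groups overlapped. Separate Bmpr1a-/- cells had the highest group mean for 25 of the 37 genes, and mixed Bmpr1a-/- cells the lowest for 22. In a bulk sample, fewer cells of a type and less RNA per cell cannot be told apart.

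**Figure D1:**
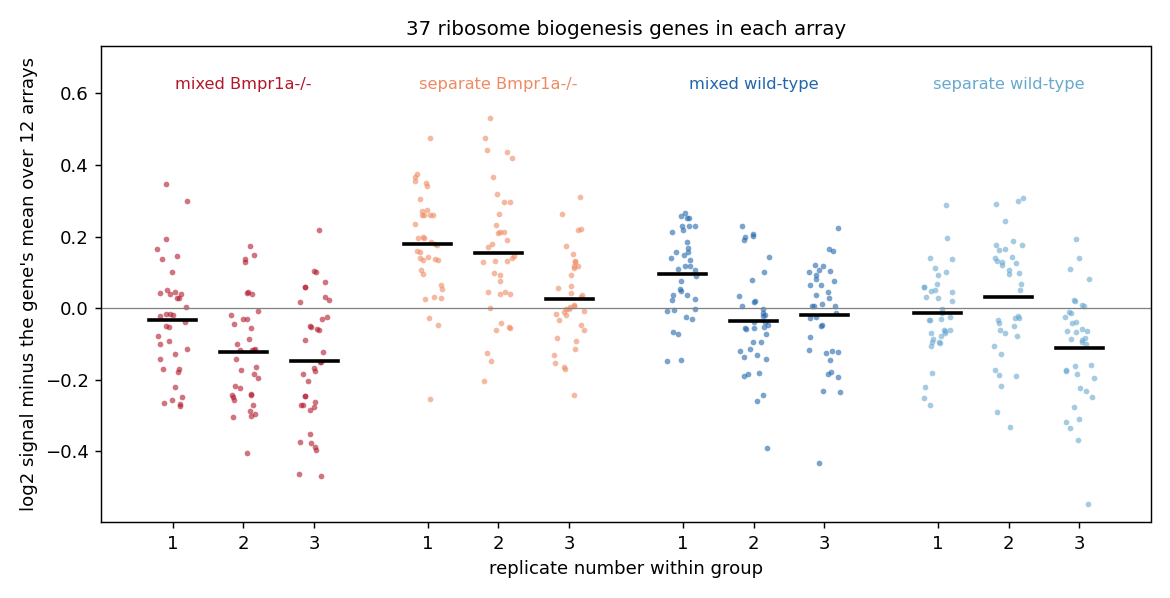
Each point is 1 of 37 ribosome biogenesis genes in 1 array, as log2 signal minus the gene's mean over 12 arrays (vertical axis), with arrays along the horizontal axis by group and replicate number. Black bars are means over the 37 genes; those of the mixed Bmpr1a-/- arrays (-0.15 to -0.03) lie below those of the separate Bmpr1a-/- arrays (0.03 to 0.18).

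Co-culture of Bmpr1a-/- cells with wild-type cells came with lower mRNA of the RNA polymerase I subunit Polr1e, the nucleolar helicase Ddx21 and the large-subunit assembly factor Bop1. These 3 of the 37 genes fell and 0 rose (limma, adjusted p under 0.05 over all genes tested), where 0.795% of all genes tested fell. The other 34 did not pass, although 36 of the 37 differences were below 0. The median difference of the 37 was -0.23 on the log2 scale, against -0.02 over all genes tested. For 17 of the 37 genes all 3 mixed arrays lay below all 3 separate arrays, and 10.6% of all genes tested did so. An unadjusted p under 0.05 was reached by 19 of the 37 and by 14.9% of all genes tested. In a fit of only the 2 Bmpr1a-/- groups 0 of the 37 passed, and calls over all genes numbered 46, against 279 in the fit of all 12 arrays.

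Polr1e, a subunit of RNA polymerase I, gave signals of 284, 289.7 and 248 in mixed Bmpr1a-/- cells and 378, 354 and 381 in separate Bmpr1a-/- cells. The group means were 274 ± 22.8 in mixed and 371 ± 14.9 in separate cells (SD, n = 3 each). The mixed and separate arrays did not overlap, and the difference was -0.44 (SE 0.08, adjusted p = 0.0206). In wild-type cells Polr1e gave 402, 396 and 369.5 in mixed and 328, 385 and 345 in separate culture, groups that overlapped (difference 0.15, SE 0.08, adjusted p = 1.0). Rrn3, which brings the polymerase to the rRNA promoter, gave 1122, 1029 and 923 in mixed Bmpr1a-/- cells, against 1154, 998 and 988 in the separate ones, overlapping groups with a difference of -0.03 (SE 0.10, adjusted p = 0.955). Polr1e passed and Rrn3 did not, and the difference between them was not tested. The 2 largest subunits, read under older symbols, gave differences of -0.26 (SE 0.08, adjusted p = 0.148) for Polr1a and -0.49 (SE 0.15, adjusted p = 0.133) for Polr1b. With the replicate number as a block Polr1b passed (adjusted p = 0.00604).

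Ddx21, a helicase that links RNA polymerase I transcription to rRNA processing, gave 1201, 1226 and 1181 in mixed Bmpr1a-/- cells, against 1565, 1503 and 1414 in the separate ones. Its mixed arrays (mean 1203 ± 22.9, SD, n = 3) all lay below its separate arrays (1494 ± 76), with a difference of -0.31 (SE 0.06, adjusted p = 0.0297). The wild-type arrays ran the other way without passing, at 1547, 1638 and 1599 in mixed and 1393, 1495 and 1448 in separate culture (0.14, SE 0.06, adjusted p = 1.0). Nolc1, a chaperone of the small nucleolar RNA particles that guide rRNA modification, gave 677, 671 and 712 in mixed Bmpr1a-/- cells, against 846, 937 and 812 in the separate ones. These groups were also apart, but the difference of -0.33 (SE 0.08) missed the threshold (adjusted p = 0.0501). Mybbp1a, a nucleolar protein of rRNA transcription and processing, likewise had mixed arrays (1398 to 1418) below the separate ones (1557 to 1823) at -0.27 (SE 0.07, adjusted p = 0.0746). Ncl, the abundant nucleolar protein nucleolin, had overlapping groups and a difference of -0.09 (SE 0.08, adjusted p = 0.71).

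Among rRNA modification enzymes, Dkc1, the pseudouridine synthase of box H/ACA particles, gave 1148, 1172 and 1150.0 in mixed Bmpr1a-/- cells, against 1260.0, 1104 and 1248 in the separate ones. These overlapped, with a difference of -0.06 (SE 0.07, adjusted p = 0.825). Nop2, an rRNA methyltransferase under an older symbol, fell to 544, 512 and 473 in mixed Bmpr1a-/- cells, against 705, 687 and 616 in separate Bmpr1a-/- cells (-0.39, SE 0.08, adjusted p = 0.0327). Nop58, a core protein of box C/D particles, gave -0.13 (SE 0.06, adjusted p = 0.378). On its shared probe set Fbl, the methyltransferase of those particles, gave -0.09 (SE 0.07, adjusted p = 0.689), and the probe set does not tell which locus the signal comes from.

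The small-subunit processome is the particle, worked out mostly in yeast, that folds and cuts the early transcript. Of its 12 genes, 0 passed by limma in Bmpr1a-/- cells, 6 had an unadjusted p under 0.05 (14.9% of all genes did), and all 12 differences were below 0, from -0.35 (Rrp9) to -0.05 (Utp18). Utp20 gave 708, 856.5 and 806 in mixed Bmpr1a-/- cells, against 934, 1034 and 899.7 in the separate ones, without overlap (-0.28, SE 0.08, adjusted p = 0.115). Heatr1, which also takes part in rRNA transcription, was apart too, at 921 to 994 in mixed and 1038 to 1239 in separate cells (-0.25, SE 0.08, adjusted p = 0.119). The groups overlapped for Rrp9, a protein of the snoRNA particle that guides early cleavage (-0.35, SE 0.15, adjusted p = 0.286), and for Nol6 (-0.23, SE 0.08, adjusted p = 0.203). Nop14, under an older symbol, gave -0.10 (SE 0.06, adjusted p = 0.522). The remaining processome genes lay between -0.34 (Imp4) and -0.05 (Utp18), and of these only Wdr75 (583 to 639 in mixed, against 665 to 711.5 in separate Bmpr1a-/- cells) and Wdr43 (1619 to 1753, against 1803 to 1893) had groups apart.

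Of the 4 late small-subunit factors none passed by limma, and 2 had an unadjusted p under 0.05, as 14.9% of all genes did. Rrp12, known from yeast as an export factor, gave 329, 336 and 327 in mixed Bmpr1a-/- cells, against 449, 439 and 367 in the separate ones, without overlap (-0.33, SE 0.09, adjusted p = 0.0746). Tsr1 and Ltv1, which hold the immature particle in check, were also apart, at -0.20 (SE 0.06, adjusted p = 0.149) and -0.21 (SE 0.10, adjusted p = 0.361). Nob1, the nuclease of the last cut, overlapped (-0.17, SE 0.09, adjusted p = 0.406).

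Among 11 large-subunit factors 1 passed, Bop1, which works in a complex with Pes1 and Wdr12. Over all genes tested 0.795% fell. For 3 of the 11 all mixed arrays lay below all separate arrays, as they did for 10.6% of all genes. Bop1 gave 362, 324 and 309 in mixed Bmpr1a-/- cells, against 478, 515.5 and 398 in the separate ones, without overlap (-0.48, SE 0.11, adjusted p = 0.0455). Its wild-type arrays gave 469, 385 and 408 in mixed and 399, 428 and 373 in separate culture, and overlapped (0.07, SE 0.11, adjusted p = 1.0). Its partners did not pass, and the difference between them and Bop1 was not tested: Pes1 gave -0.10 (SE 0.10, adjusted p = 0.768) and Wdr12 -0.05 (SE 0.08, adjusted p = 0.864), each with overlapping groups. Surf6 gave 146, 129.8 and 124 in mixed Bmpr1a-/- cells, against 179, 201 and 152 in the separate ones, apart but short of the threshold (-0.41, SE 0.10, adjusted p = 0.0605). Grwd1, a chaperone of a ribosomal protein, gave -0.40 (SE 0.12, adjusted p = 0.134) with overlapping groups, and Noc3l gave -0.21 (SE 0.08, adjusted p = 0.209) with groups apart, at 239.8 to 257 in mixed and 266 to 305.5 in separate Bmpr1a-/- cells. Gnl3, nucleostemin, was the only one of the 37 with a difference above 0, at 1316, 1249 and 1369 in mixed Bmpr1a-/- cells, against 1235, 1241 and 1395 in the separate ones (0.03, SE 0.07, adjusted p = 0.947).

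The metabolic enzymes were apart in all 3 cases without passing. Of all genes tested, 10.6% had all mixed Bmpr1a-/- arrays below all separate ones. Srm, spermidine synthase, gave 1025, 1027 and 937 in mixed Bmpr1a-/- cells, against 1274, 1352 and 1092 in the separate ones (-0.31, SE 0.09, adjusted p = 0.111). Cad, the enzyme that opens pyrimidine synthesis, gave 759.8, 885.5 and 895 in mixed and 985, 1030.0 and 968.5 in separate cells (-0.24, SE 0.07, adjusted p = 0.125). Odc1, ornithine decarboxylase and a classical Myc target, gave 1776, 1735 and 1736 in mixed and 1807, 1994 and 2128 in separate cells (-0.17, SE 0.08, adjusted p = 0.339).

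**Figure D2:**
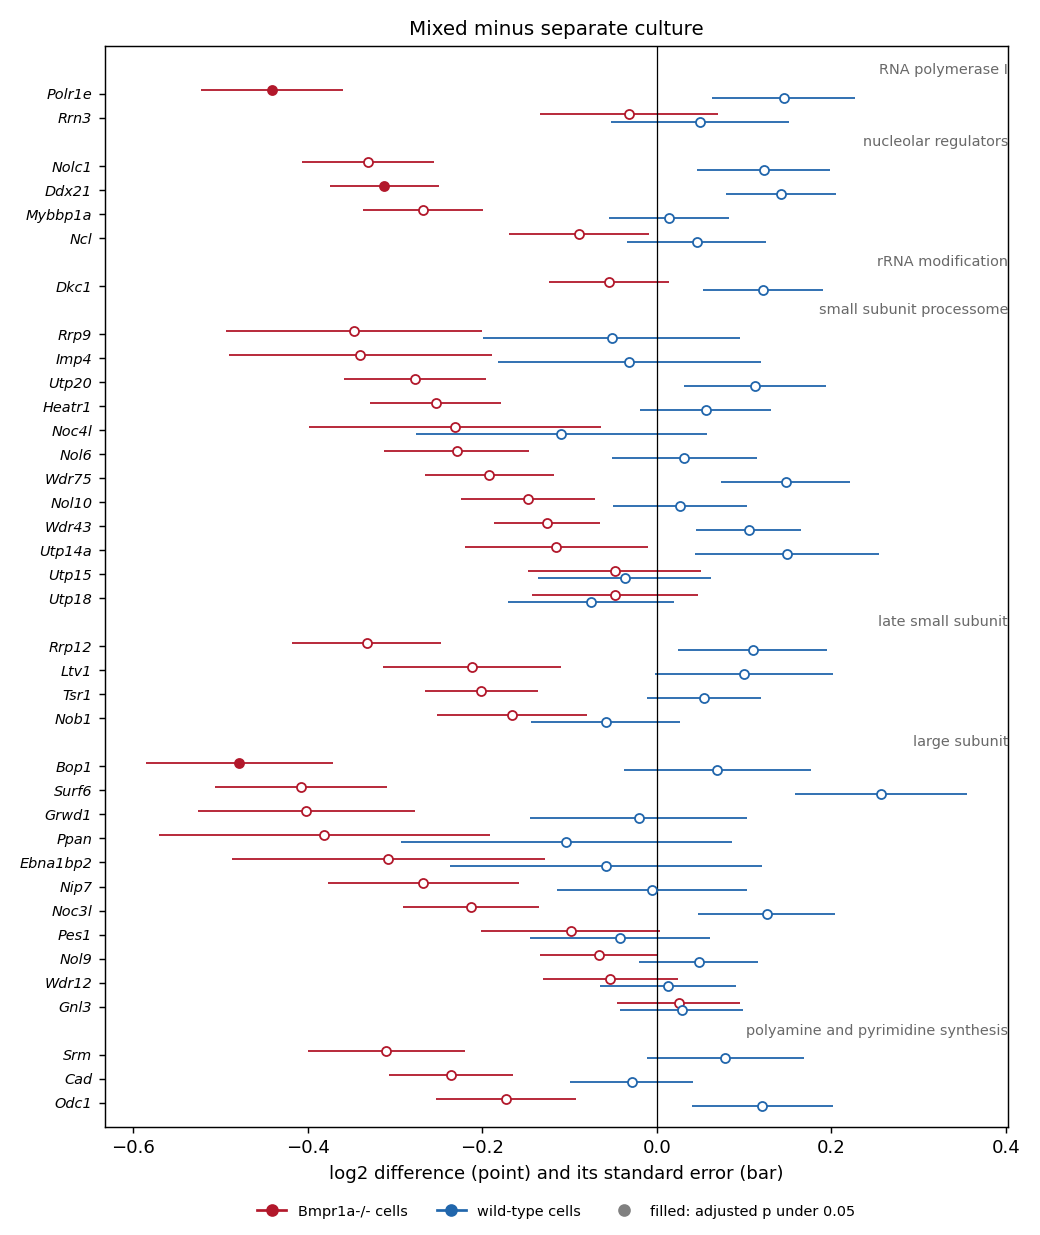
For each of the 37 genes, grouped by role down the page, the horizontal axis shows the log2 difference of mixed minus separate culture with its standard error, in Bmpr1a-/- cells (red) and in wild-type cells (blue). Filled points passed (adjusted p under 0.05); only Polr1e, Ddx21 and Bop1 in Bmpr1a-/- cells did, while 36 of 37 red points lie left of 0 and 25 of 37 blue points right of it.

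The file headers give the replicate numbers as experiments, and with that number as a block 10 of the 37 genes fell in Bmpr1a-/- cells and 0 rose. The block also raised the calls over all genes to 878, against 279 without it, and the share of all genes that fell to 2.81%, against 0.795%. The 10 genes were Bop1, Ddx21, Srm, Nolc1, Rrp12, Polr1e, Ppan, Imp4, Grwd1 and Surf6. Within the numbered pairs, 32, 32 and 35 of the 37 genes were lower in the mixed array, and the pair medians were -0.23, -0.29 and -0.15. Of the 12 fits that each leave out 1 array, Polr1e passed in 8, Ddx21 in 7 and Bop1 in 4. None of the 3 passed without mixed Bmpr1a-/- replicate 2 or 3, or without separate Bmpr1a-/- replicate 1 or 2, and 8 genes fell without separate Bmpr1a-/- replicate 3. Esrrb, a pluripotency marker, rose in the same comparison (0.73, SE 0.15, adjusted p = 0.0313), and the other 7 markers of that list did not pass. Of the 8 markers, 4 had an unadjusted p under 0.05, as 14.9% of all genes did. All 3 mixed arrays lay above all 3 separate arrays for 5 of the 8 and below them for 2. Of all 17621 genes, 1301 lay above and 1868 below in this way. The part of the pluripotency markers in the result was not tested. Among the tested markers of fibroblasts (5), primitive endoderm (8), neural cells (7) and trophoblast (6), 0 passed in that comparison by limma, and 2, 0, 0 and 1 of them had an unadjusted p under 0.05.

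In wild-type cells none of the 37 genes passed between mixed and separate culture by limma, and 0 of all 17621 genes did (0%). At an unadjusted p under 0.05 there were 2 of the 37, Ddx21 and Surf6, and 516 of all genes (2.93%). The median of the 37 was 0.05, against -0.01 over all genes, and 25 of 37 differences were above 0. Without mixed wild-type replicate 1 this median was 0.02. The most positive was Surf6, at 160.1, 159.1 and 153.1 in mixed and 141.5, 127.7 and 126.4 in separate culture (0.26, SE 0.10, adjusted p = 1.0), and the most negative was Noc4l (-0.11, SE 0.17, adjusted p = 1.0). Within the numbered pairs the sign was not stable: 5, 23 and 6 of the 37 genes were lower in the mixed array. With the replicate block none of the 37 passed either.

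The difference between these co-culture changes was itself tested, as the change in Bmpr1a-/- cells minus that in wild-type cells. Of the 37 genes 2 were lower and 0 higher, Polr1e (-0.59, SE 0.12, adjusted p = 0.0402) and Ddx21 (-0.45, SE 0.09, adjusted p = 0.0393), where 0.386% of all genes tested were lower. The median of the 37 was -0.26, against -0.01 over all genes, and 36 of 37 were below 0. The most negative value was that of Surf6 (-0.665, SE 0.14), which did not pass (adjusted p = 0.0526), and the most positive that of Utp18 (0.03, SE 0.13, adjusted p = 0.979). With the replicate block 5 were lower, Bop1, Ddx21, Nolc1, Polr1e and Surf6, and so were 1.12% of all genes. Both calls ended for 10 of the 12 arrays left out in turn. Ddx21 still passed without separate Bmpr1a-/- replicate 3, and Polr1e without separate wild-type replicate 2.

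**Figure D3:**
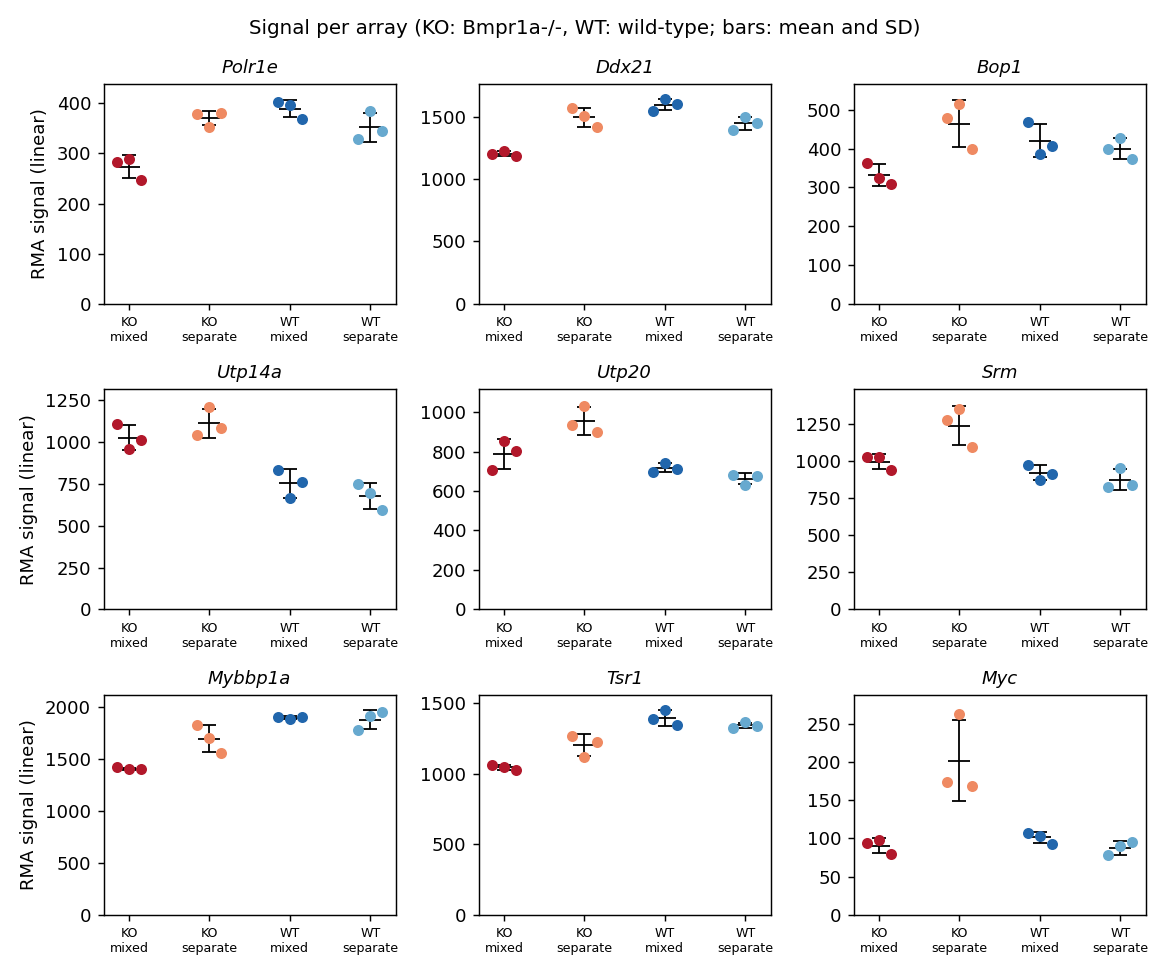
Signal on a linear axis starting at 0 (vertical) for 9 genes in the 4 groups (horizontal); points are arrays, and bars are the mean and SD of 3 arrays. For Polr1e, Ddx21 and Bop1 the mixed Bmpr1a-/- arrays lie below the separate Bmpr1a-/- arrays, while Utp14a is higher in both Bmpr1a-/- groups than in the matched wild-type groups.

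Myc itself gave 94.6, 98.5 and 79 in mixed Bmpr1a-/- cells, against 174, 263 and 168 in the separate ones. It gave 108, 103 and 93.1 in mixed wild-type cells and 77.8, 90.7 and 95.5 in the separate ones. Myc fell with co-culture in Bmpr1a-/- cells (-1.13, SE 0.15, adjusted p = 0.00494) and its change differed from that in wild-type cells (-1.33, SE 0.22, adjusted p = 0.0196). Mycn, the family member also found in embryonic cells, gave 562, 549 and 410.0 in mixed Bmpr1a-/- cells, against 798, 911 and 575.5 in the separate ones, groups that were apart without passing (-0.58, SE 0.18, adjusted p = 0.137). With the replicate block Mycn passed in this comparison (adjusted p = 0.00484) and in the difference between the co-culture changes (-0.59, adjusted p = 0.0289, against 0.399 without the block). The call of that difference for Myc held in 8 of the 12 fits that each leave out 1 array. It was lost without mixed Bmpr1a-/- replicate 3, mixed wild-type replicate 1 or 2, or separate wild-type replicate 1, with adjusted p up to 0.0671. In separate culture Myc (1.17, SE 0.15, adjusted p = 0.000641) and Mycn (0.67, SE 0.18, adjusted p = 0.0304) were higher in Bmpr1a-/- than in wild-type cells, and Mycn kept that call in 7 of the 12 fits. It was lost without any 1 of the separate wild-type arrays or without separate Bmpr1a-/- replicate 1 or 2. In mixed culture neither passed, at -0.16 (SE 0.15, adjusted p = 0.583) for Myc and 0.08 (SE 0.18, adjusted p = 0.86) for Mycn. Whether the ribosome biogenesis genes depend on Myc in these cells was not tested. The median co-culture difference in Bmpr1a-/- cells was -0.21 for the 10 genes with CACGTG in the promoter window and -0.21 for the 23 without it. For mixed Bmpr1a-/- minus mixed wild-type cells these medians were -0.25 with and -0.06 without it, and for separate Bmpr1a-/- minus separate wild-type cells 0.06 and 0.14. The 4 ribosome biogenesis genes on chromosome 11, Mybbp1a, Tsr1, Utp18 and Pes1, are all among the 10 genes with CACGTG. For Bmpr1a-/- minus wild-type cells their medians were -0.41 in mixed and -0.18 in separate culture. The part of chromosome 11 in this split was not tested, and neither were the differences between genes with and without the letters.

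When the lines grew apart, ribosome biogenesis genes were more often called higher than lower in Bmpr1a-/- cells. Of the 37 genes, 8 were higher in separate Bmpr1a-/- than in separate wild-type cells and 1 was lower, where 4.94% of all genes tested were higher and 6.3% lower. The median was 0.14, against -0.02 over all genes, and 31 of 37 differences were above 0. All 3 metabolic enzymes were among the 8. This comparison shares its separate Bmpr1a-/- arrays with the co-culture comparison, so the values of both are given side by side and no agreement is read from them.

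Utp14a, a processome protein encoded on the X chromosome, gave 1045, 1212 and 1082 in separate Bmpr1a-/- cells, against 748.5, 693 and 596 in separate wild-type cells (0.72, SE 0.11, adjusted p = 0.0012). Its co-culture difference in Bmpr1a-/- cells was -0.115 (SE 0.11, adjusted p = 0.722). Utp20 gave 934, 1034 and 899.7 in separate Bmpr1a-/- cells, against 682, 632 and 676 in separate wild-type cells (0.53, SE 0.08, adjusted p = 0.00172). In both genes every separate Bmpr1a-/- array was above every separate wild-type array. Srm gave 1274, 1352 and 1092 in separate Bmpr1a-/- cells, against 825, 954 and 839 in separate wild-type cells (0.50, SE 0.09, adjusted p = 0.00395). Dkc1, also on the X chromosome, gave 1260.0, 1104 and 1248, against 899.5, 939 and 960.1 in separate wild-type cells (0.37, SE 0.07, adjusted p = 0.00502). These 4 genes passed whichever array was left out.

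The other 4 higher genes were Surf6 (0.42, SE 0.10, adjusted p = 0.0157), Rrn3 (0.40, SE 0.10, adjusted p = 0.024), Cad (0.29, SE 0.07, adjusted p = 0.0203) and Odc1 (0.28, SE 0.08, adjusted p = 0.0402). Their groups did not overlap, and each lost its call without at least 1 of the 12 arrays. Without separate wild-type replicate 2, or without separate Bmpr1a-/- replicate 2, 4 of the 37 genes remained higher, Utp20, Srm, Utp14a and Dkc1. The lower gene was Utp18, at 425, 489 and 429 in separate Bmpr1a-/- cells, against 619.5, 628.5 and 559 in separate wild-type cells (-0.43, SE 0.10, adjusted p = 0.0122). Under older symbols Polr1a (0.38, SE 0.08, adjusted p = 0.0126), Nop14 (0.25, SE 0.06, adjusted p = 0.0214) and Nop58 (0.25, SE 0.06, adjusted p = 0.0223) were higher too. Polr1e (0.08, SE 0.08, adjusted p = 0.656), Ddx21 (0.05, SE 0.06, adjusted p = 0.733) and Bop1 (0.21, SE 0.11, adjusted p = 0.266) did not pass.

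In mixed culture more of the 37 genes were called lower than higher in Bmpr1a-/- cells. Of the 37 genes, 8 were lower in mixed Bmpr1a-/- than in mixed wild-type cells and 2 were higher, where 10.1% of all genes tested were lower and 6.36% higher. The median was -0.11, against -0.02 over all genes, and 25 of 37 differences were below 0. The median was -0.07 without mixed Bmpr1a-/- replicate 3 and -0.06 without mixed wild-type replicate 1, where that of all genes was -0.03. The 8 lower genes came from the polymerase I, nucleolar, processome, late small-subunit and large-subunit groups, and none from the metabolic enzymes. This comparison shares its mixed Bmpr1a-/- arrays with the co-culture comparison.

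Polr1e had the most negative difference, with 284, 289.7 and 248 in mixed Bmpr1a-/- cells against 402, 396 and 369.5 in mixed wild-type cells (-0.51, SE 0.08, adjusted p = 0.00103). Mybbp1a gave 1418, 1398 and 1400.0 in mixed Bmpr1a-/- cells, against 1900.0, 1881 and 1904 in mixed wild-type cells (-0.43, SE 0.07, adjusted p = 0.001). Tsr1 gave 1062, 1045 and 1024, against 1388, 1450.0 and 1341 in mixed wild-type cells (-0.42, SE 0.06, adjusted p = 0.000843). The arrays within each of these groups lay close together and the groups were wide apart. Ddx21 (-0.41, SE 0.06, adjusted p = 0.000794), Rrp12 (-0.41, SE 0.09, adjusted p = 0.00539) and Nolc1 (-0.37, SE 0.08, adjusted p = 0.00508) were lower as well. These 6 genes passed whichever array was left out.

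Utp18 (-0.40, SE 0.10, adjusted p = 0.0113) and Bop1 (-0.34, SE 0.11, adjusted p = 0.0464) completed the 8. Utp14a was higher in mixed Bmpr1a-/- cells, at 1109, 959 and 1014, against 833, 664.5 and 762 in mixed wild-type cells (0.45, SE 0.11, adjusted p = 0.0104). Rrn3 was higher near the threshold, with 1122, 1029 and 923 against 928, 761 and 777 in mixed wild-type cells, groups that overlapped (0.32, SE 0.10, adjusted p = 0.0496). Without mixed wild-type replicate 2 neither was higher. Of the 12 fits that each leave out 1 array, Utp18 and Utp14a passed in 11, Bop1 in 5 and Rrn3 in 4. Of the older symbols Nop2 was lower (-0.30, SE 0.08, adjusted p = 0.0246). The metabolic enzymes gave 0.11 (Srm, adjusted p = 0.493), 0.08 (Cad, adjusted p = 0.544) and -0.01 (Odc1, adjusted p = 0.962).

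**Figure D4:**
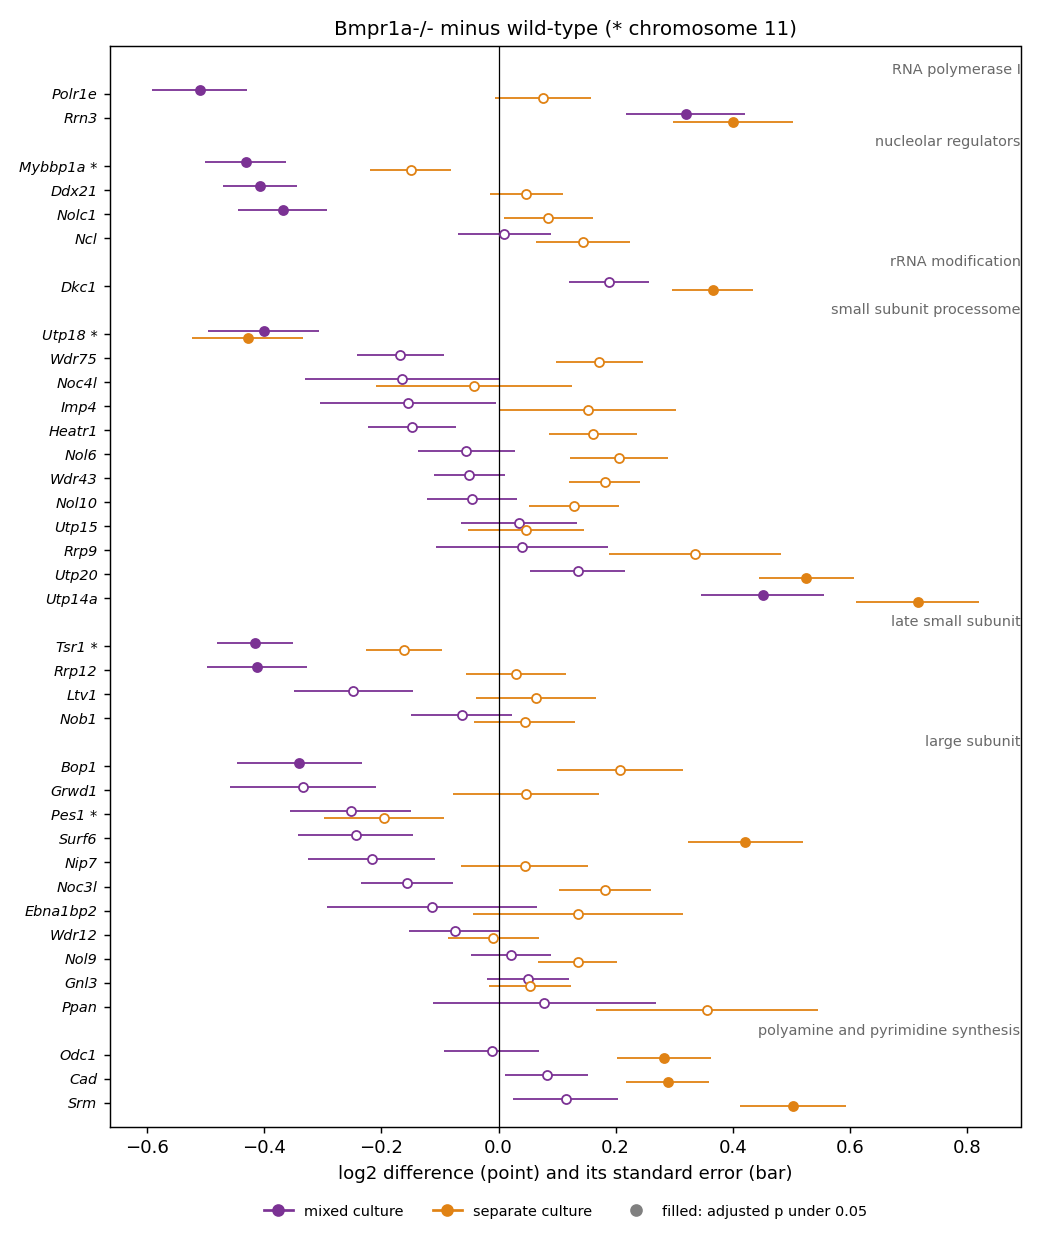
The horizontal axis gives the log2 difference of Bmpr1a-/- minus wild-type cells with its standard error for each of the 37 genes, grouped by role, in mixed culture (purple) and in separate culture (orange). Filled points passed (adjusted p under 0.05): 8 lie left and 2 right of 0 in mixed culture, and 1 left and 8 right of 0 in separate culture; stars mark the 4 genes on chromosome 11.

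Genes of chromosome 11 had a lower median than other genes in both genotype comparisons. The 1385 tested had a median of -0.17 in mixed and -0.17 in separate culture, against -0.02 and -0.02 over all other placed genes. In the co-culture comparison of Bmpr1a-/- cells its median was -0.02. The 4 of the 37 genes on this chromosome, Mybbp1a, Tsr1, Utp18 and Pes1, were all below 0 in both genotype comparisons, and 3 of the 8 lower genes in mixed culture and the 1 lower gene in separate culture lie on it. Without these 4 genes 5 were lower and 2 higher in mixed culture (median -0.06), 0 lower and 8 higher in separate culture, and 3 still fell with co-culture in Bmpr1a-/- cells. The part of the chromosome in the values of those 4 genes was not tested. The X chromosome, which carries Utp14a and Dkc1, had medians of 0.06 in mixed and 0.05 in separate culture over 565 genes. Of these 565, 149 were higher and 59 lower in mixed culture, and 119 were higher and 43 lower in separate culture. Over all genes 6.36% were higher and 10.1% lower in mixed, and 4.94% and 6.3% in separate culture. The part of the X chromosome in the values of Utp14a and Dkc1 was not tested. The pluripotency markers, 7 of 8 higher in the Bmpr1a-/- line in each kind of culture, moved with the same comparisons, and their part in the results was not tested.

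Other parts of the ribosome machinery were counted from lists drawn up with the 37 genes. Of 108 further assembly factors, 2 fell and 0 rose with co-culture in Bmpr1a-/- cells, the helicase Dhx33 (-0.43, SE 0.09, adjusted p = 0.0261) and Utp4 (-0.29, SE 0.07, adjusted p = 0.0497), with a median of -0.18. Over all genes tested 0.795% fell. Dhx33 passed in 7 and Utp4 in 0 of the 12 fits that each leave out 1 array. With the replicate block 14 of the 108 fell, and so did 2.81% of all genes. In wild-type cells 0 of the 108 passed by limma, 4 had an unadjusted p under 0.05 (2.93% of all genes did), and the median was 0.05. The difference between the co-culture changes was lower for Dhx33 (-0.59, SE 0.12, adjusted p = 0.049, passing in 1 of the 12 fits) and did not pass for Utp4 (-0.38, SE 0.09, adjusted p = 0.105). In mixed culture 23 of the 108 were lower in the Bmpr1a-/- line and 1 was higher, with the smallest p for Utp6 (-0.59, SE 0.08, adjusted p = 3.0e-04) and Ftsj3 (-0.53, SE 0.07, adjusted p = 0.000309). Of these 23, 11 were on chromosome 11. Over all genes 10.1% were lower and 6.36% higher in this comparison. In separate culture 5 were higher and 5 lower, where 4.94% of all genes were higher and 6.3% lower. Gnl3l (-0.56, SE 0.10, adjusted p = 0.0036) and Senp3 (-0.37, SE 0.08, adjusted p = 0.0106) had the smallest p. Of the 5 lower genes, 4 were on chromosome 11.

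Of 78 ribosomal protein genes listed, only 46 were tested. With co-culture in Bmpr1a-/- cells 0 of the 46 passed by limma. An unadjusted p under 0.05 was reached by 2 of them and by 14.9% of all genes, and their median difference was 0.02. In mixed Bmpr1a-/- minus mixed wild-type cells 80.4% of the 46 differences were above 0, against 42.7% of all genes, with medians of 0.05 and -0.02. In separate culture 65.2% were above 0, against 43.5% of all genes. Rpl39 and Rps4x were higher in Bmpr1a-/- than in wild-type cells in mixed culture (0.53 and 0.48, adjusted p = 0.000763 and 0.0143) and in separate culture (0.37 and 0.41, adjusted p = 0.0114 and 0.0427). They were the only 2 of the 46 that passed in either genotype comparison. Both lie on the X chromosome, where 149 of 565 genes were higher in mixed and 119 in separate culture. The part of that chromosome in their values was not tested. Over all genes 6.36% were higher in mixed and 4.94% in separate culture. Of 23 genes of nucleotide synthesis, 0 passed with co-culture in Bmpr1a-/- cells by limma, 10 had an unadjusted p under 0.05 (14.9% of all genes), and the median was -0.16. In mixed culture 10 of the 23 were lower in the Bmpr1a-/- line (10.1% of all genes were), with the smallest p for Pfas (-0.60, SE 0.08, adjusted p = 0.000304) and Prps2 (-0.68, SE 0.10, adjusted p = 0.000592). In separate culture 4 of the 23 were lower (6.3% of all genes were), with Pfas (-0.44, SE 0.08, adjusted p = 0.00443) and Ctps2 (-0.44, SE 0.08, adjusted p = 0.00502) at the smallest p. Of these lower genes, 2 of the 10 in mixed and 1 of the 4 in separate culture were on chromosome 11. Of 23 translation factors and tRNA synthetases 0 passed with co-culture in Bmpr1a-/- cells by limma, 3 had an unadjusted p under 0.05 (14.9% of all genes did), and the median was -0.10. In mixed culture 3 were lower in Bmpr1a-/- cells, among them Eif5a (-0.43, SE 0.08, adjusted p = 0.0028) and Wars (-0.50, SE 0.11, adjusted p = 0.00658). Over all genes 10.1% were lower, and 2 of these 3 genes were on chromosome 11.

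**Figure D5:**
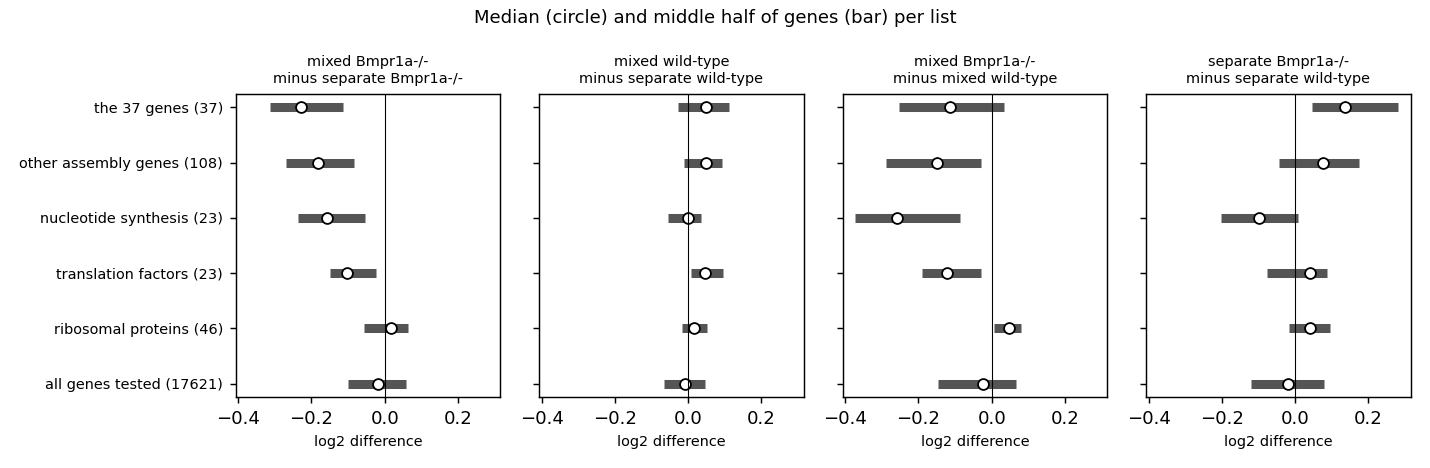
Circles are the median log2 difference and bars the range from the lower to the upper quartile over the genes of each list (number tested in brackets), with 1 panel for each comparison on a common horizontal axis. The 37 genes lie at -0.23 for mixed minus separate Bmpr1a-/- cells and at 0.05 for mixed minus separate wild-type cells, and ribosomal proteins lie at 0.02 in both.

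The 37 genes also varied among themselves within a group. The median SD over 3 arrays, on the log2 scale, was 0.09 in mixed and 0.12 in separate Bmpr1a-/- cells, and 0.08 in mixed wild-type cells and 0.09 in the separate ones. Noc4l, Ppan and Ebna1bp2 were among the least even: Ebna1bp2 gave 692.5, 563 and 564 in mixed Bmpr1a-/- cells, against 852, 822 and 595 in the separate ones. Ppan (-0.38, SE 0.19, adjusted p = 0.385) and Ebna1bp2 (-0.31, SE 0.18, adjusted p = 0.475) did not pass with co-culture in Bmpr1a-/- cells, although Ppan passed with the replicate block (adjusted p = 0.0283). Where a gene had a further probe set the values could differ: the other Wdr12 probe set gave -0.12 (SE 0.09, adjusted p = 0.611) with co-culture in Bmpr1a-/- cells and 0.22 (SE 0.09, adjusted p = 1.0) in wild-type cells. The 2 other Ncl probe sets gave -0.37 (SE 0.25, adjusted p = 0.57) and -0.04 (SE 0.10, adjusted p = 0.928) in Bmpr1a-/- cells.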

How the data were processed

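The authors normalized the 12 arrays with RMA, which the submitters' processing notes credit to Affymetrix Expression Console 1.2, and the file headers name core transcript level, quantile normalization and a median baseline. The deposited workbook gives linear intensity values (its raw sheet), which differ from the deposited log2 values of the RMA sheet by a constant per probe set, so both hold RMA signal. Log2 of the linear sheet was used. Of 28815 probe sets, 22700 had 1 symbol (older symbols updated through RefSeq, GRCm38.p6). A filter removed probe sets whose mean signal was below 25.4 (percentile 20 of the table), and the brightest stood for each gene, leaving 17621.

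Differences came from limma 3.58.1 (R 4.3.3), with the 4 group means in 1 fit of 12 arrays (8 residual degrees of freedom, median 12.7 after eBayes). P-values are two-sided and adjusted by Benjamini-Hochberg over all genes tested. Only the limma fit of the co-culture difference in Bmpr1a-/- cells was tested on simulated data, with independent noise for each gene and array. The main fit held no term for the replicate numbers, which the headers call experiments. They were taken as pairs only in the fit with the replicate block and in the counts within numbered pairs. Deviations from the group means of same-numbered mixed and separate Bmpr1a-/- arrays correlated between 0.15 and 0.39, and those of mixed Bmpr1a-/- and mixed wild-type arrays between 0.38 and 0.64. Between mixed and separate wild-type arrays they ran from -0.10 to 0.57. Genes were named by a fixed set of roles, by passing, and as the largest rise and fall per comparison; Ppan, Ebna1bp2, Imp4, Grwd1, Noc3l, Wdr43, Wdr75 and Esrrb fell outside this rule and were named after their values were seen. The genes, the lists and the tests were chosen with earlier results of these data known.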

Additional observations from a re-analysis of the deposited data

Results flagged for a closer look

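For 3 genes the co-culture change differed between the cell lines by limma's test of the difference itself. Ddx21 changed by -0.31 in Bmpr1a-/- cells and gave 0.14 in wild-type cells, a difference of -0.45 (adjusted p = 0.0393). Polr1e changed by -0.44 in Bmpr1a-/- cells and gave 0.15 in wild-type cells, a difference of -0.59 (adjusted p = 0.0402). Myc changed by -1.13 in Bmpr1a-/- cells and gave 0.21 in wild-type cells, a difference of -1.33 (adjusted p = 0.0196). The call for Myc held in 8 of the 12 fits that each leave out 1 array, and those for Ddx21 and Polr1e in 1 each.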

How the results depend on the processing

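None of the 24 member differences that passed changed sign under any alternative, and 10 of them passed whichever array was left out. Genes that fell with co-culture in Bmpr1a-/- cells numbered 3, 10 with the replicate block, 0 with only the groups compared, and 0 to 8 with an array left out. For the difference between the co-culture changes the 2 lower genes became 5 with the replicate block, 1 with quantile normalization repeated, 1 with an intensity trend, and 0 to 3 with an array left out; with only the groups compared it has no other value, since it uses all 4. In separate culture the 8 higher genes became 5 with only the groups compared and 4 to 8 with an array left out, and the 1 lower gene became 0 without chromosome 11 and 0 to 2 with an array left out (0 without separate wild-type replicate 2, 2 without separate Bmpr1a-/- replicate 1). In mixed culture the 2 higher genes became 1 without a filter, with arrays centred on their median, with only the groups compared or with robust eBayes, and 0 to 2 with an array left out. The 8 lower genes became 13 with array weights, 5 without chromosome 11 and 6 to 9 with an array left out. Over all genes, calls with co-culture in Bmpr1a-/- cells were 279, 878 with the replicate block, 46 with only the groups compared and 454 with array weights, and 50 to 390 with an array left out. Calls for the difference between the changes were 121, 387 with the block, 209 with array weights and 25 to 132 with an array left out. In separate culture they were 1981, 1170 with only the groups compared and 1083 to 1967 with an array left out. In mixed culture they were 2905 and 1851 to 3122 with an array left out. The replicate block moved no other count of the 37 genes by over 1.5 times: it gave 10 higher and 1 lower in separate culture and 2 higher and 10 lower in mixed culture. The median of the 37 with co-culture in Bmpr1a-/- cells lay between -0.27 and -0.19 over all alternatives. With an array left out, the median ran from 0.02 to 0.07 for wild-type co-culture and from -0.17 to -0.06 for the genotypes in mixed culture. Leaving out chromosome 11 and adding older symbols were chosen after seeing the data. The causes were not tested.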
